A study of Mus musculus with 28 samples.

Results

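The C-type lectin genes and the mannose receptor gene were followed in mouse dendritic cells grown from bone marrow. They were chosen by name: every row of the deposited tables with a name that starts with Clec and a digit, or with Cd209, or that reads Mrc1. This gave 14 of 6658 distinct gene rows. All 14 were among the 6250 rows of a table of ribosome footprints, the mRNA fragments that translating ribosomes protect. Of them 4, Clec10a, Mrc1, Clec4n and Clec4d;Mcl, were among the 3147 rows of the RNA table, and the other 10 had a level in resting cells and no time course. There were 0 rows named Cd209. Clec16a carries the name but encodes an intracellular regulator of mitophagy, not a sugar-binding receptor, and is kept as the name rule took it.

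The cells came from female C57BL/6J mice aged 6 to 8 weeks and were cultured in GM-CSF at 20 ng/ml, a growth factor that drives myeloid cells out of bone marrow. Non-adherent and loosely attached cells were used, and the labels name no sort. On culture day 9 they received lipopolysaccharide (LPS, a bacterial cell wall component sensed by Tlr4) from E. coli at 100 ng/ml, or a mock stimulus, and RNA was taken at 1, 2, 4, 6, 9 and 12 h, with unstimulated cells at 0 h. Each of these 13 groups held 2 RNA libraries, and 2 further libraries held footprints of unstimulated cells of the same kind. The medium was exchanged at time 0 in both arms for protein labelling. RNA and footprints are given as TPM, a level per transcript length with a fixed total in each library, so read depth is unknown and no counting error can be given. Whether the 2 replicates were cultured apart is not stated in the labels, and the p-values below therefore cover only library-to-library spread, possibly technical.

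C-type lectin receptors bind sugars on microbes and on the body's own glycoproteins through a folded domain that often needs calcium. Some, such as the mannose receptor and the galactose-binding receptor Clec10a, mainly take bound material into endosomes. Others, such as Clec4n (Dectin-2), Clec4d (MCL), Clec4e (Mincle) and Clec7a (Dectin-1), pass a signal through the kinase Syk and the adaptor Card9, the first 3 by pairing with the signalling chain Fcer1g. Inhibitory members such as Clec4a2 (DCIR) and Clec12a carry a motif that recruits phosphatases. Dendritic cells are known to lose endocytic receptors as they mature.

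In the established response (the mean of the 6, 9 and 12 h differences), LPS cells held less RNA of Clec10a, Mrc1 and Clec4n than mock cells, and more of Clec4d;Mcl. On the log2(TPM + 1) scale the differences were -3.76 ± 0.21 for Clec10a, -2.50 ± 0.16 for Mrc1, -1.16 ± 0.27 for Clec4n and 0.76 ± 0.26 for Clec4d;Mcl (SE, 2 libraries per group). Their adjusted p-values were 1.4e-10, 7.88e-10, 0.00124 and 0.0156 (limma over all 3147 genes, Benjamini-Hochberg, threshold 0.05). Of all genes 47.7% were called lower and 15.5% higher in this contrast, 63.2% in all, so a call alone sets no member apart from the other genes. The median gene stood at -0.43. Relative to that shift Clec10a, Mrc1 and Clec4n were still lower and Clec4d;Mcl still higher. When each library was rescaled by its median ratio to the others, the 4 differences were -3.37, -2.10, -0.75 and 1.17, all past the threshold. In these bulk samples, fewer cells of a type and less RNA per cell cannot be told apart.

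Markers of the cell types that such cultures can hold were read beside these results. Of 13 dendritic cell and antigen presentation markers 4 had RNA values, (Cd74, H2-Aa, H2-Ab1 and Itgax), 11 of the 13 were in the footprint table, and 0 of the 4 were called late in either direction. Their summed level ran from 7244 to 20965 TPM in LPS libraries and from 8910 to 18634 TPM in mock. Of 17 macrophage markers 8 had RNA values, 2 higher (Fcgr1, Cd14) and 2 lower (Csf1r, C1qb) late, with summed levels of 8635 to 40846 TPM with LPS and 11804 to 44567 TPM in mock. Of 14 neutrophil granule markers 7 had values, 1 higher (Lcn2) and 2 lower (S100a8, S100a9), with sums of 1165 to 8678 TPM with LPS and 2492 to 11097 TPM in mock. No listed marker of B cells, of T and natural killer cells or of mast cells was in either table (0 of 5, 0 of 8 and 0 of 5). After median-ratio rescaling 2 dendritic cell markers were higher and 0 lower, 3 macrophage markers higher and 0 lower, and 1 neutrophil marker higher and 1 lower. With replicate number as a block 1 dendritic cell marker was higher and 1 lower, 2 macrophage markers higher and 2 lower, and 1 neutrophil marker higher and 3 lower. Of all 3147 genes 487 were higher and 1502 lower late, 825 and 816 after rescaling, and 585 and 1815 with the block. The part of the marker shifts in the falls of Clec10a, Mrc1 and Clec4n was not tested.

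**Figure D1:**
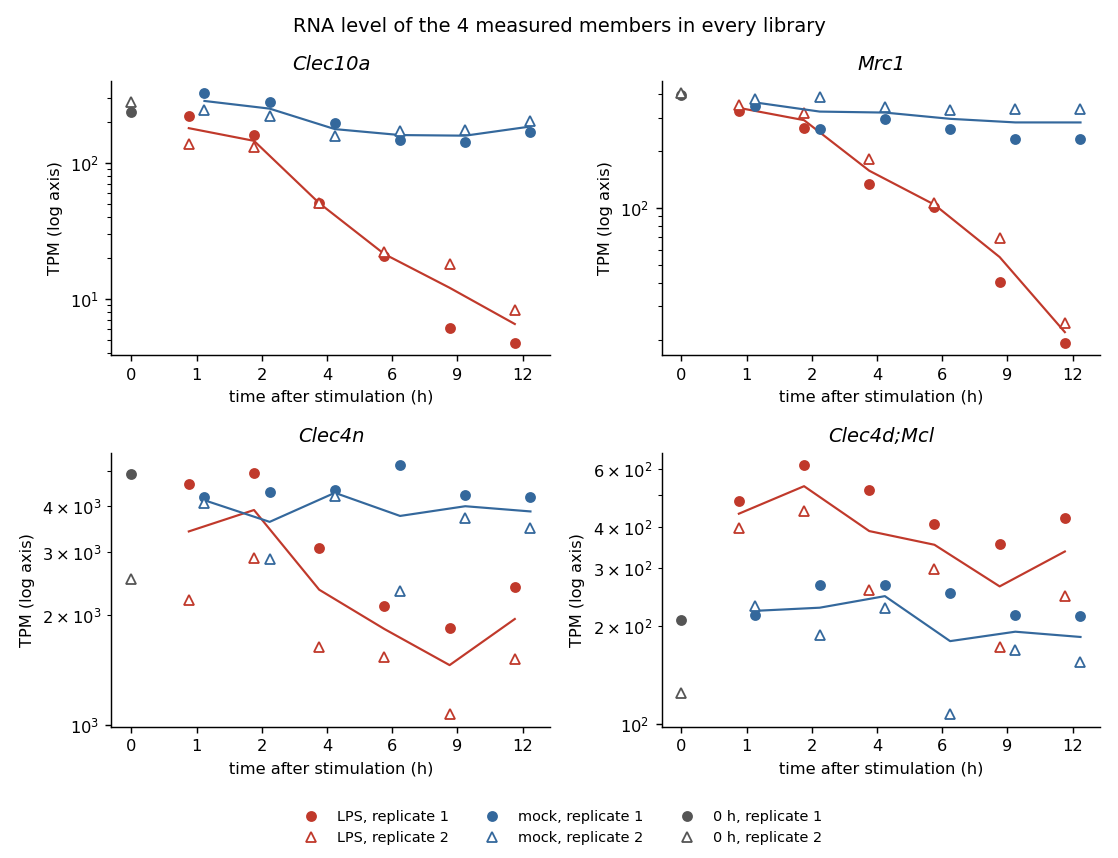
RNA level in TPM (log axis) of the 4 members with RNA values, by time after stimulation, with 1 point per library and lines through the means of the LPS and mock libraries. LPS points of Clec10a stand below mock at every time and those of Mrc1 and Clec4n from 4 h on. Those of Clec4d;Mcl stand above mock at 1, 2, 6 and 12 h. The share of all genes whose arms stand apart like this was not counted.

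Clec10a, also called MGL1, binds galactose-type sugars and was the member that differed most. At 1 h the LPS libraries held 221 and 138 TPM against 322 and 246 TPM in mock, and at 2 h 159 and 130 TPM with LPS against 279 and 220 TPM in mock. At 4 h the values were 50.6 and 50.2 TPM with LPS against 197 and 156 TPM in mock, and at 6 h 20.5 and 22.1 TPM with LPS against 148 and 171 TPM in mock. At 9 h they were 6.06 and 18.0 TPM with LPS against 141 and 175 TPM in mock, and at 12 h 4.76 and 8.28 TPM with LPS against 167 and 202 TPM in mock. Every LPS library stood below both mock libraries of its time. The share of all genes whose arms stood apart like this was not counted, here or for the other members. The LPS mean was 63.1% of the mock mean at 1 h, 58.0% at 2 h, 28.6% at 4 h, 13.3% at 6 h, 7.62% at 9 h and 3.53% at 12 h. By rank it stood 809th from the top of the 3147 genes at 1 h with LPS and 3034th at 12 h with LPS, against 703rd in mock cells at 12 h.

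The single-time differences of Clec10a past the threshold were -1.78 ± 0.36 at 4 h (adjusted p = 0.000926, limma), -2.85 at 6 h, -3.77 at 9 h and -4.66 ± 0.36 at 12 h (adjusted p = 4.14e-08, limma). Of all genes, 29.2%, 30.0%, 30.0% and 26.8% were called lower at these times. At 1 and 2 h the differences of -0.69 and -0.78 did not pass, with adjusted p-values of 0.332 and 0.174, where 0.794% and 8.04% of genes were called lower. Their mean, the early effect, was -0.73 ± 0.25 with an adjusted p of 0.0542, in a contrast where 9.72% of genes were called lower. With replicate number as a block the same early difference had an adjusted p of 0.0248 (19.4% of genes called lower in that fit), and without LPS replicate 1 of 1 h it was -0.90 with an adjusted p of 0.0275. Late minus early was -3.02 ± 0.33 (adjusted p = 4.16e-06, 22.2% of genes called lower).

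Clec10a has a close copy, Mgl2, which stands next to it on chromosome 11 and encodes a second galactose-type lectin that prefers N-acetylgalactosamine. The RNA reads were 30 bases long, so stretches shared by the copies bear on how reads could be assigned. Of 898 windows of 30 bases along the Clec10a coding sequence (927 bases, GENCODE vM21 transcripts), 41.2% occur in Mgl2 as well, and 33.1% of the 1117 windows of Mgl2 occur in Clec10a. The longest run that is identical in both spans 183 bases, coding bases 502 to 684 of Clec10a and 550 to 732 of Mgl2. It is shown because a 30-base end inside it has the same letters in both genes. Reads were paired, and the windows take no account of a mate that falls outside a shared stretch.
Clec10a and Mgl2 shared run: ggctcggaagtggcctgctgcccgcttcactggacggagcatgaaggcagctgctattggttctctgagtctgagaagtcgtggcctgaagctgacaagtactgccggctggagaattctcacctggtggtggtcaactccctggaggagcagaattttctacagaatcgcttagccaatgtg

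Mgl2 RNA was the more abundant of the pair at every time. Its LPS libraries at 12 h held 531 and 332 TPM, against 1003 and 1170 TPM in mock. Its late difference was -1.07 ± 0.20 (adjusted p = 0.000191, limma), which is smaller than that of Clec10a. Averaged over the 6 times, the LPS effect on Clec10a minus that on Mgl2 was -1.66 on the log2 scale, with the same sign at 6 of 6 times (exact permutation test, two-sided, p = 4.29e-05, the smallest that 46656 rearrangements of the arm labels within times can give; this pair was chosen after its values were seen). With arms swapped only within replicate pairs the exact permutation p was 0.000488, the smallest that test can give. When the TPM of both rows were added, the late difference was -1.23 ± 0.18 (adjusted p = 1.86e-05, limma) and that at 12 h -1.57 ± 0.32 (adjusted p = 0.000976, limma). The summed level was thus lower with LPS by much less than the Clec10a row alone. How shared reads were divided between the rows was not tested.

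**Figure D2:**
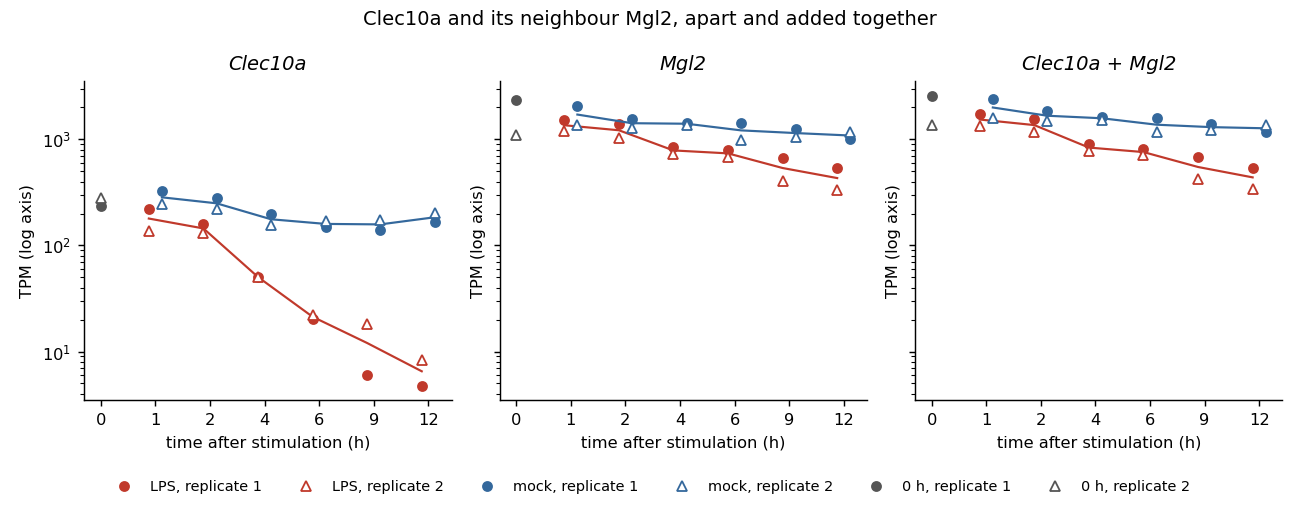
RNA level in TPM (shared log axis) of Clec10a, of Mgl2 and of their sum, by time after stimulation, with 1 point per library and lines through the means. At 12 h Clec10a stood at 4.76 and 8.28 TPM with LPS, while Mgl2 stood at 531 and 332 TPM with LPS, and the sum follows Mgl2.

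Mrc1, the mannose receptor, takes up glycoproteins that end in mannose, fucose or N-acetylglucosamine and cycles between the cell surface and endosomes. At 1 h its RNA stood at 328 and 350 TPM in LPS libraries against 346 and 380 TPM in mock, and at 2 h at 266 and 318 TPM with LPS against 262 and 386 TPM in mock. The arms overlapped at both times. At 4 h it stood at 134 and 181 TPM with LPS against 296 and 344 TPM in mock, and at 6 h at 102 and 106 TPM with LPS against 261 and 332 TPM in mock. At 9 h it stood at 40.6 and 68.9 TPM with LPS against 233 and 335 TPM in mock, and at 12 h at 19.3 and 24.5 TPM with LPS against 233 and 335 TPM in mock. From 4 h on every LPS library was below both mock libraries of its time, a pattern not counted over all genes. The LPS mean was 49.1% of the mock mean at 4 h, 35.0% at 6 h, 19.3% at 9 h and 7.71% at 12 h.

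The differences of Mrc1 past the threshold were -1.03 ± 0.27 at 4 h, -1.49 at 6 h, -2.38 at 9 h and -3.62 ± 0.27 at 12 h (adjusted p from 0.00678 to 3.67e-08, limma). The call at 4 h was lost under median-ratio rescaling (-0.58, adjusted p = 0.164), without LPS replicate 1 of 4 h (adjusted p = 0.0738) and without mock replicate 2 of 4 h (adjusted p = 0.0551). At 1 and 2 h the differences were -0.10 and -0.13, with adjusted p-values of 0.879 and 0.838. Late minus early was -2.39 ± 0.25 (adjusted p = 3.1e-06, limma, 22.2% of genes called lower). Between neighbouring times no member's difference changed past the threshold in the fit without the block. With replicate number as a block, the further change in Mrc1 between 2 and 4 h had an adjusted p of 0.0217, where 8.87% of genes were called lower. That between 9 and 12 h had one of 0.033, and Mrc1 was the 1 gene of 3147 called lower there (0.0318%). In the fit without the block, 1.18% of genes were called for the step from 1 to 2 h and 3.21% for that from 2 to 4 h. For the later steps limma called 0 genes, with 157, 155 and 96 genes at an unadjusted p under 0.05, and with the block it called 2, 2 and 8.

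Mrc1 has no 30-base window of its coding sequence in common with another gene (0 of 4342). Its RefSeq promoter window in GRCm38.p6, from 250 bases before to 50 after the start on the plus strand (chr2:14229164-14229463), is shown with the matches to GAGGAA in capitals, on either strand, so that its reverse reads as TTCCTC. This is a core bound by the myeloid factor PU.1 and other factors of its ETS family.
Mrc1: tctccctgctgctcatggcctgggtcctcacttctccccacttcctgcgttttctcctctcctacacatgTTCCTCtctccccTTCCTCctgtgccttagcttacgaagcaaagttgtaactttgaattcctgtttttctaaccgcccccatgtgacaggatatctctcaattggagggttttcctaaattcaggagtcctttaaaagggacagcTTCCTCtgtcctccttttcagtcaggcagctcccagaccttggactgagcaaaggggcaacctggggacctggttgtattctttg

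Clec4n, or Dectin-2, binds mannans of fungal cell walls and was the most abundant member by TPM in every group of libraries. At 1 h its LPS libraries held 4621 and 2201 TPM against 4234 and 4084 TPM in mock, and at 2 h 4931 and 2887 TPM with LPS against 4395 and 2855 TPM in mock. The arms overlapped at both times. At 4 h they held 3074 and 1637 TPM with LPS against 4436 and 4285 TPM in mock, and at 6 h 2130 and 1539 TPM with LPS against 5198 and 2330 TPM in mock. At 9 h they held 1850 and 1067 TPM with LPS against 4302 and 3706 TPM in mock, and at 12 h 2397 and 1513 TPM with LPS against 4257 and 3490 TPM in mock. From 4 h on both LPS libraries were below both mock libraries of their time, with LPS means at 54.0%, 48.7%, 36.4% and 50.5% of mock. How many of all genes stood apart in this way was not counted. The median gene was itself lower with LPS at these times, at -0.46, -0.44, -0.44 and -0.39 on the log2 scale. Clec4n still ranked 91st of 3147 genes with LPS at 12 h, against 50th in mock.

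The replicates of Clec4n differed widely, replicate 1 being the higher in 13 of 13 groups by a median of 0.66 log2 units. In the fit to all 13 groups without the block, 1 single-time difference passed, that of -1.51 ± 0.46 at 9 h (adjusted p = 0.0161, limma), and it did not without LPS replicate 2 of 9 h (adjusted p = 0.137), without mock replicate 1 of 9 h (adjusted p = 0.0891) or after median-ratio rescaling (adjusted p = 0.0821). On the deposited scale and without the block, 30.0% of all genes were called lower at 9 h. The differences of -0.96, -0.94 and -1.02 at 4, 6 and 12 h had adjusted p-values of 0.113, 0.116 and 0.0964. Fitted to the compared groups alone, those at 4 and 12 h passed (adjusted p = 0.0417 and 0.0434) and that at 9 h did not (adjusted p = 0.0511). These fits called 1149, 889 and 411 of 3147 genes at 4, 12 and 9 h, in either direction. With the block the differences at 4, 6 and 12 h had adjusted p-values of 0.00259, 0.00272 and 0.00164. The fit with the block called 44.9%, 42.9% and 39.1% of genes lower at these times. The difference at 6 h also passed without mock replicate 2 of 6 h (adjusted p = 0.0374). Late minus early was -1.01 ± 0.42, with an adjusted p of 0.0812 without the block and 0.00107 with it (37.2% of genes called lower with the block). It also passed without LPS replicate 2 of 1 h (adjusted p = 0.0358) and without mock replicate 2 of 6 h (adjusted p = 0.0359). The early difference was -0.15 ± 0.33 (adjusted p = 0.821).

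Clec4d;Mcl was the member whose RNA was higher with LPS. It encodes MCL, which binds a glycolipid of the mycobacterial cell wall and partners Mincle. At 1 h its LPS libraries held 480 and 398 TPM against 215 and 229 TPM in mock, and at 2 h 618 and 448 TPM with LPS against 267 and 187 TPM in mock. At 4 h they held 521 and 257 TPM with LPS against 266 and 226 TPM in mock, and at 6 h 409 and 297 TPM with LPS against 251 and 107 TPM in mock. At 9 h they held 355 and 172 TPM with LPS against 215 and 168 TPM in mock, and at 12 h 427 and 246 TPM with LPS against 214 and 155 TPM in mock. The arms overlapped at 4 and 9 h only, and such separation was not counted over all genes. The LPS mean was 198% of the mock mean at 1 h, 235% at 2 h, 158% at 4 h, 197% at 6 h, 138% at 9 h and 182% at 12 h.

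The early effect on Clec4d;Mcl was 1.11 ± 0.31 (adjusted p = 0.0208, limma, 8.39% of genes called higher). It lost its call without mock replicate 1 of 1 h (adjusted p = 0.0664), LPS replicate 1 of 2 h (adjusted p = 0.0794) or mock replicate 2 of 2 h (adjusted p = 0.0786). The late call was lost without mock replicate 2 of 6 h (adjusted p = 0.0634), LPS replicate 1 of 9 h (adjusted p = 0.0582) or LPS replicate 1 of 12 h (adjusted p = 0.054). Late minus early was -0.34 ± 0.40 (adjusted p = 0.552). On the deposited scale and without the block the difference passed at no single time, with the lowest adjusted p of 0.0607 at 6 h. After median-ratio rescaling it passed at 2, 6 and 12 h, at 1.38, 1.504 and 1.197. The rescaled fit called 416, 1032 and 962 of 3147 genes at these times, in either direction. Without rescaling or the block, 3.27%, 6.39%, 8.74%, 11.2%, 10.1% and 10.0% of all genes were called higher at 1, 2, 4, 6, 9 and 12 h. The 6 h difference was 1.08, and without mock replicate 1 of 6 h it was 1.69 and passed (adjusted p = 0.0142). With the block it passed at 1, 2, 4, 6 and 12 h, with adjusted p-values of 0.0115, 0.000942, 0.0487, 0.000939 and 0.00739, and not at 9 h (adjusted p = 0.187). With the block 11.2%, 11.0%, 12.1%, 14.8%, 13.6% and 14.1% of genes were called higher at the 6 times. Replicate 1 was the higher in 12 of the 13 groups.

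The Clec4d promoter window of RefSeq (GRCm38.p6, chr6:123261857-123262156, plus strand) is shown beside that of Mrc1 because these members moved in opposite directions. Capitals again mark GAGGAA on either strand.
Clec4d: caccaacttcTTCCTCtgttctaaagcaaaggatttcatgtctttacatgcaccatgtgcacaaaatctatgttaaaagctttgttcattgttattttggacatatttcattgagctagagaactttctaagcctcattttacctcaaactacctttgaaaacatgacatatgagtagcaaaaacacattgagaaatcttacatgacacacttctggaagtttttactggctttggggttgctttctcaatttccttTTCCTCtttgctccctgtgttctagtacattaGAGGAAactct

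Both windows hold 3 matches to GAGGAA, at bases 71, 84 and 216 of the Mrc1 window and 11, 258 and 290 of the Clec4d window, with no overlap between motifs. Of 32851 RefSeq promoter windows of this length 28.3% hold at least 1, and 9 of the 12 members with an entry do. Members were counted by gene, and Clec7a has more than 1 window, so these shares are in unlike units. Clec10a and Clec4n have no entry. TGANTCA, the AP-1 letters, occurs in 7.81% of all windows and in 2 of the 12, and TATAAA in 13.6% and in 4 of the 12. Both strands were searched, and a match says only that the letters are there.

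**Figure D3:**
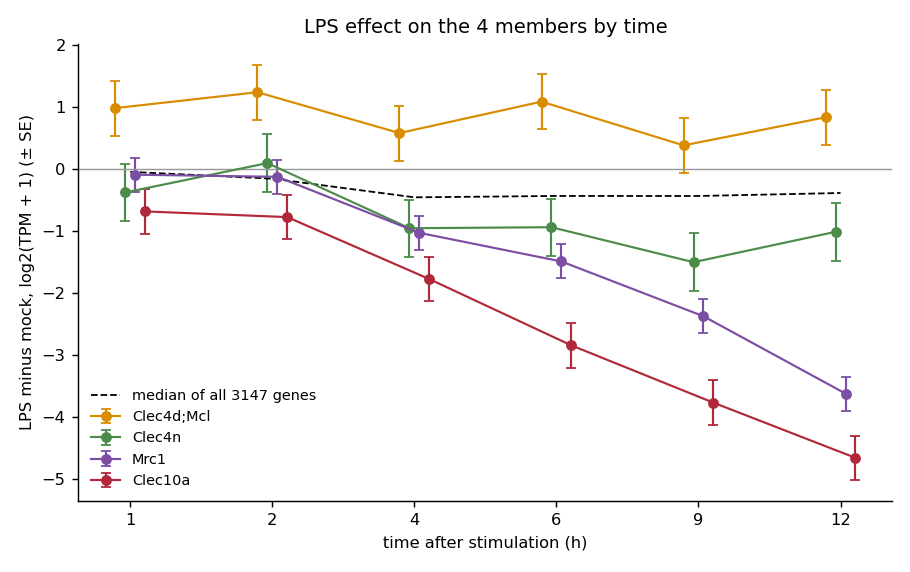
LPS minus mock on the log2(TPM + 1) scale at each time for the 4 members, with standard errors from the limma fit, and the median of all 3147 genes as a dashed line. Clec10a and Mrc1 end at -4.66 and -3.62 at 12 h, Clec4n stands at -0.96, -0.94, -1.51 and -1.02 from 4 h on, and Clec4d;Mcl stays above 0 at every time.

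Taking the 6 times as 1 test (limma F test), all 4 members differed between LPS and mock cells, as did 57.2% of all genes. The adjusted p-values were 7.5e-09 for Clec10a, 3.47e-08 for Mrc1, 0.021 for Clec4n and 0.0213 for Clec4d;Mcl (limma). That of Clec4n missed the threshold without LPS replicate 2 of 9 h (adjusted p = 0.0565), without mock replicate 1 of 9 h (adjusted p = 0.058) and after rescaling or quantile normalization (adjusted p = 0.216 and 0.106). That of Clec4d;Mcl missed it without LPS replicate 1 of 2 h (adjusted p = 0.0512), without mock replicate 2 of 2 h (adjusted p = 0.0511) and after quantile normalization (adjusted p = 0.0522).

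The 4 members were also compared with each other, in 6 pairs, by the difference of their LPS effects averaged over the 6 times (exact permutation tests over arm labels within times, two-sided, adjusted over the 6 pairs). The effect on Clec10a was lower than that on Clec4d;Mcl by -3.27, than that on Clec4n by -1.63 and than that on Mrc1 by -0.96, each in the same direction at 6 of 6 times. The adjusted p-values were 8.57e-05, 0.000129 and 0.000206, and 4.29e-05 is the smallest raw p possible. That on Clec4d;Mcl was higher than that on Clec4n by 1.63 and than that on Mrc1 by 2.30 (exact permutation test, adjusted p = 8.57e-05 for both). Clec4n and Mrc1 differed by 0.67 (exact permutation test, adjusted p = 0.0658), by 0.87 without 1 h (adjusted p = 0.0419) and by 0.29 without 12 h (adjusted p = 0.356). When arms were swapped only within pairs of the same time and replicate number, a test added after seeing the data, their difference passed (exact permutation test, adjusted p = 0.0444, higher for Clec4n in 10 of 12 pairs). The other 5 differences passed under this test as well, with adjusted p-values of 0.000732 to 0.00117, and 0.000488 is the smallest raw p its 4096 swaps allow. The order of Clec4n and Mrc1 thus depends on the pairing and on the times used. The share of all gene pairs that differ in this way was not counted.

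Before stimulation, at 0 h, Clec4n RNA stood at 4922 and 2525 TPM, Mrc1 at 395 and 404, Clec10a at 237 and 279, and Clec4d;Mcl at 208 and 125 TPM. The libraries of Clec10a and Clec4d;Mcl did not overlap, and neither did those of the other neighbours in this order. In mock cells at 12 h Clec10a stood at 184 ± 24.8 and Clec4d;Mcl at 185 ± 42.2 TPM (SD, n = 2), so this pair did not differ beyond its spread there. With LPS at 12 h the order was Clec4n at 1955 ± 625, Clec4d;Mcl at 337 ± 128, Mrc1 at 21.9 ± 3.72 and Clec10a at 6.52 ± 2.49 TPM (SD, n = 2).

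Mock cells were compared with 0 h to see whether the members drift after the change of medium. No member passed at any time, and limma called 0 of 3147 genes in each of the 6 comparisons, with 25 to 70 genes at an unadjusted p under 0.05. Clec10a in mock cells stood at -0.71 ± 0.36 against 0 h at 9 h, and Mrc1 at -0.51 ± 0.27 at the same time, both with an adjusted p of 0.999. Mrc1 in mock cells stood below 0 h at every time, from -0.14 at 1 h to -0.51 at 12 h. Clec4d;Mcl stood above 0 h at every time, from 0.03 at 6 h to 0.60 at 4 h. With replicate number as a block, Mrc1 at 12 h had an unadjusted p of 0.00661 and an adjusted p of 0.68 (limma). These comparisons rest on 2 libraries per group and share the 0 h libraries. A lack of calls thus does not show that drift is absent.

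Rows with the time course most like each member were found by Pearson correlation of log2(TPM + 1) over the 13 group means, which share the same libraries. For Clec10a these were Gda, which breaks down guanine (r = 0.994), NAAA;Naaa, Atp5a1, Osgep and Ptgs1, the constitutive cyclooxygenase (r = 0.988). For Mrc1 they were Idh2, a mitochondrial isocitrate dehydrogenase (r = 0.990), Mbnl1;mKIAA0428, Cotl1, Evi2b and Adk. For Clec4n they were Ppa2, a mitochondrial pyrophosphatase (r = 0.974), Naca, Farsb, C1qbp and Eif3m. For Clec4d;Mcl they were Cd14, the co-receptor that hands LPS to Tlr4 (r = 0.957), Myo1g, Syk;Sykb (r = 0.946), Nlrp3, the inflammasome sensor, and Malt1 (r = 0.928). Among the members r was 0.975 for Clec10a and Mrc1, 0.925 for Clec10a and Clec4n, and 0.857 for Clec4n and Mrc1. Between Clec4d;Mcl and the others it was -0.27 to -0.34.

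Footprints gave a level for all 14 members in resting cells. Clec4n led with 2692 and 2857 TPM, 57th of 6250 rows. Clec10a followed with 828 and 986, Clec7a, the beta-glucan receptor Dectin-1, with 500 and 664, and Mrc1 with 417 and 507 TPM. Clec4a2, the inhibitory receptor DCIR, stood at 349 and 452 TPM. The libraries of Clec7a and Mrc1 overlapped, as did those of Mrc1 and Clec4a2, so the order within these neighbours is not shown. Clec4b1, the activating receptor DCAR, stood at 231 and 277 TPM. Clec12a, an inhibitory receptor that senses uric acid crystals, stood at 178 and 226 TPM.

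A group of 5 receptors lay close together around 100 TPM. Clec4d;Mcl had 137 and 104 footprint TPM, Clec4e (Mincle) 95.5 and 117, Clec5a;Mdl1, a receptor that signals through Tyrobp, 104 and 95.3, and Clec2d, a ligand of natural killer cell receptors, 96.0 and 98.4 TPM. Clec4a3 was lower in this group, at 62.2 and 90.9 TPM, below both libraries of each of the other 4. Clec2i, also a ligand of natural killer cell receptors, stood at 19.7 and 21.8 TPM, and Clec16a;mKIAA0350 at 6.16 and 5.38 TPM, 5943rd of 6250 rows. Levels of members with close copies depend on how shared reads were assigned. Of 30-base windows, 41.2% of Clec10a, 35.1% of Clec4a2, 23.4% of Clec2d, 23.1% of Clec4b1, 21.1% of Clec2i, 5.16% of Clec4n and 4.67% of Clec4a3 occur in another gene. For Clec4d, Clec4e, Clec5a, Clec7a, Clec12a, Clec16a and Mrc1 the share was 0%.

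**Figure D4:**
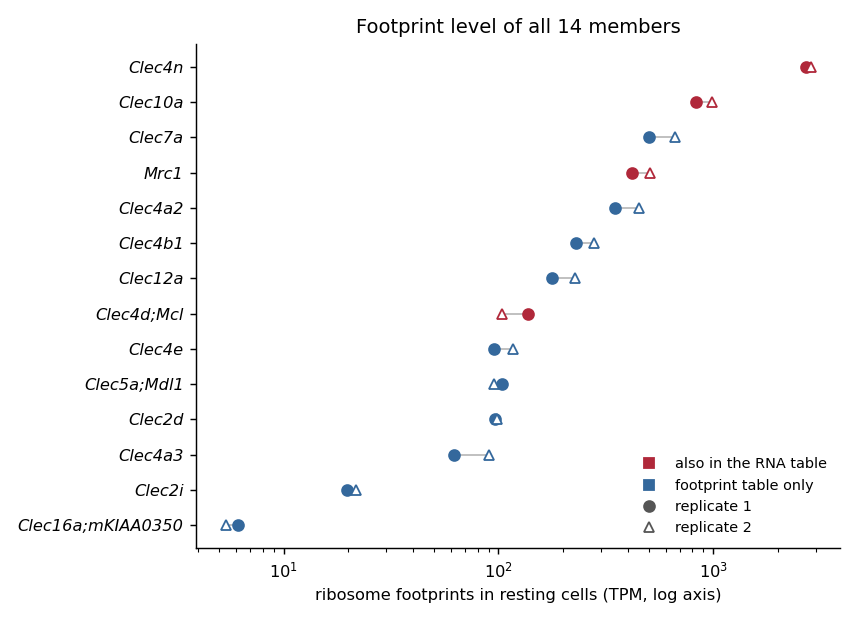
Ribosome footprints in resting cells in TPM (log axis) for all 14 members, with 1 point per library and colour showing whether the gene also has RNA values. Levels run from 2692 and 2857 TPM for Clec4n down to 6.16 and 5.38 TPM for Clec16a;mKIAA0350.

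By position, 11 of the 14 members lie on chromosome 6, which holds the mouse lectin gene clusters, with Mrc1 on chromosome 2, Clec10a on 11 and Clec16a on 16. Clec4n, Clec4d and Clec4e are consecutive protein-coding genes in the later annotation. The first pair of these neighbours changed in opposite directions with LPS, as given above. Clec4e has no RNA value here.

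Footprints were set against 0 h RNA over the 2739 rows in both tables, each library centred on its median shared gene. The comparison shows which members had more footprints for their 0 h RNA level than a typical gene. Clec10a stood 2.64 ± 0.26 log2 units above that gene (adjusted p = 0.00593, limma) and Mrc1 1.04 ± 0.24 above it (adjusted p = 0.0301, limma). Of the shared rows, 13.7% were called higher. Clec4n at 0.49 ± 0.31 and Clec4d;Mcl at 0.40 ± 0.31 did not pass, with adjusted p-values of 0.26 and 0.34. With Mgl2 added to Clec10a the difference was 1.35 ± 0.31 (adjusted p = 0.03), and Mgl2 alone stood at 0.99 ± 0.35 (adjusted p = 0.0802).

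The call for Mrc1 was lost without footprint replicate 1 or 2, and without centring its difference stood at 0.20. Without RNA replicate 1 of 0 h, Clec4n and Clec4d;Mcl stood at 0.90 and 0.70. Leaving out 1 library leaves 1 in that assay, and the genes called then vary widely in number. A call gained or lost there thus sets no member apart. The footprint and RNA tables were normalised separately, from libraries made by different methods. No culture day is recorded for the footprint cells, against day 9 for the 0 h RNA. A difference between the cultures was not tested.

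Of the genes that work downstream of these receptors, 28 of 52 listed had RNA values. In the late contrast 6 were higher and 10 lower with LPS, against 487 and 1502 of all 3147 genes. The list's median was -0.14, against -0.43 for all genes. After median-ratio rescaling the split was 10 higher and 8 lower, with 825 and 816 for all genes. Malt1, the protease of the Card9 complex, rose by 1.77 ± 0.27 (adjusted p = 2.82e-05, limma). Fcer1g, the signalling chain that Clec4n and Clec4d pair with and the most abundant gene of the list at a mean of 2730 TPM, rose by 0.68 ± 0.17, and Syk;Sykb, the kinase it recruits, by 0.53 ± 0.11 (adjusted p = 0.0023 and 0.000335, limma).

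Card9, the adaptor behind Syk, was lower by -1.42 ± 0.15 (adjusted p = 5.32e-07, limma). AK171687;Bcl10, which joins Card9 to Malt1, stood at -0.05 ± 0.17 (adjusted p = 0.797). The largest 2 falls of the list were those of Nfatc2, a transcription factor activated by calcium, at -2.02 ± 0.23, and Fgr, a Src-family kinase, at -1.86 ± 0.12 (adjusted p = 1.09e-06 and 1.19e-09, limma). In the early contrast 4 of the 28 were higher and 7 lower, with 264 higher and 306 lower of all 3147 genes. With the block 6 were higher and 7 lower early, with 447 and 611 of all genes. Late, 7 were higher and 13 lower with the block, with 585 and 1815 of all genes.

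**Figure D5:**
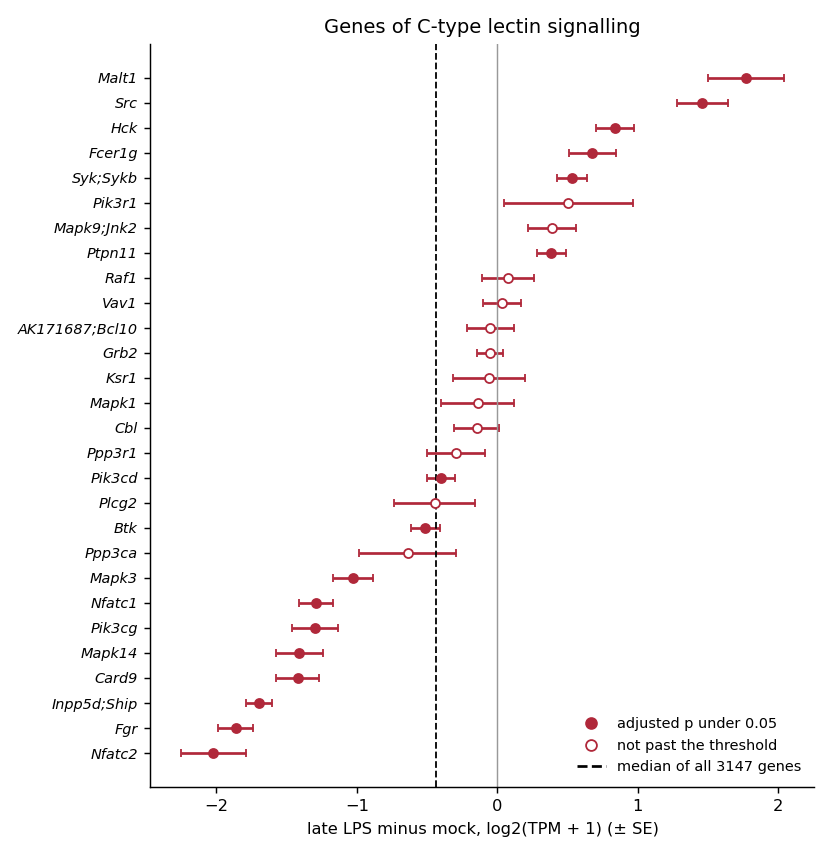
Late LPS minus mock on the log2(TPM + 1) scale, with standard errors, for the 28 measured genes of C-type lectin signalling, with filled points for an adjusted p under 0.05 and the median of all 3147 genes as a dashed line. Malt1 stands highest at 1.77 and Nfatc2 lowest at -2.02.

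Other genes with the lectin fold were hardly represented, with 3 of 44 measured. Mgl2 was lower, as given above, while Prg2, a granule protein of eosinophils, at -0.53 ± 0.37 and Cd302 at -0.19 ± 0.22 did not pass. Of scavenger and phagocytic receptors 16 of 46 were measured, of which 2 were higher and 5 lower late, beside 15.5% and 47.7% of all genes. Their median was -0.17, and that of all genes -0.43. Fcgr1, the high-affinity receptor for IgG, stood at 2.41 ± 0.23 and Cd14 at 1.82 ± 0.49, while Sort1, a sorting receptor, fell by 2.16 ± 0.12 on the log2 scale (adjusted p from 0.0038 to 1.28e-10, limma). Plaur, the urokinase receptor and most abundant of them at 916 TPM, stood at -0.27 ± 0.24 and did not pass. After rescaling the split was 6 higher and 2 lower, and with the block 4 higher and 5 lower. For all 3147 genes it was 825 and 816 after rescaling, and 585 and 1815 with the block.

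Among genes of alternative activation and tolerance, with which Clec10a and Mrc1 are often grouped, 18 of 49 were measured, 3 higher and 8 lower late, shares close to the 15.5% and 47.7% of all genes. Their median was -0.36, and that of all genes -0.43. Ptgs1 stood at -3.31 ± 0.13 and Alox5, the 5-lipoxygenase of leukotriene synthesis, at -2.59 ± 0.24, while Il1rn, the antagonist of the interleukin 1 receptor, stood at 2.82 ± 0.29 (adjusted p from 3.25e-07 to 1.69e-12, limma). Mmp12, the macrophage elastase and most abundant at 6683 TPM, stood at -0.57 ± 0.13 (adjusted p = 0.00102, limma). Rescaling gave 7 higher and 5 lower, beside 825 and 816 of all 3147 genes. The block gave 4 higher and 9 lower, beside 585 and 1815.

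Of the clathrin machinery that carries receptors such as Mrc1 inward, 30 of 45 genes were measured, 6 higher and 11 lower late, beside 15.5% and 47.7% of all genes. Their median was -0.26, and that of all genes -0.43. Ehd1, which acts in recycling from endosomes, stood at 2.46 ± 0.09, Arrb1, an arrestin, at -2.03 ± 0.17 and Bin1, which bends membranes, at -1.89 ± 0.11 (adjusted p from 2.96e-08 to 8.09e-13, limma). Hspa8, the chaperone that strips clathrin coats and the most abundant at 1291 TPM, stood at -0.01 ± 0.22 and did not pass. Rescaling gave 10 higher and 4 lower, beside 825 and 816 of all 3147 genes. The block gave 6 higher and 16 lower, beside 585 and 1815.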

How the data were processed

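RNA was read in 26 libraries and ribosome footprints in 2. Both tables hold TPM, a level per transcript length and per fixed library total, as deposited by the authors. Each column sums to 1000000. The unit of the footprint table was read from its values. RNA was poly(A)-selected, strand-specific and read as paired 30-base ends, per the labels' protocols. Bowtie 0.12.7, RSEM 1.2.3, Bowtie2, TopHat2 and build mm9 are named in the submitters' processing notes without a role. Titles were followed where descriptions of the 4 h samples name another hour. TPM keeps no depth, so no counting error is given.

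All 3147 genes were fitted with limma 3.58.1 (R 4.3.3) on log2(TPM + 1) with 1 mean for each of 13 groups, an intensity trend and 13 residual degrees of freedom. A gene needed 1 TPM in 2 libraries, and 3147 of 3147 passed. Fold changes on this scale understate those of low genes. Errors are moderated SE for log2 differences and SD of 2 libraries for TPM. Footprints were fitted against 0 h RNA over shared rows. The fit and the permutation test were checked on simulated data. For the fit and the test over arm labels within times, the simulated libraries held no replicate effect shared by the arms. The check thus does not cover such an effect. Replicate numbers pair the libraries: the replicate differences of LPS and mock correlated over genes at 0.227 to 0.685 at all 6 times, so a fit with replicate number as a block is given where it changes a call. Members and gene lists were chosen with earlier results of these data known. The genes named from a list are its 3 largest called late changes, its most abundant gene and, for signalling, Fcer1g, Syk, Card9, Bcl10 and Malt1. Coding sequences came from GENCODE vM21 and promoters from RefSeq (GRCm38.p6), neither being the authors' build. Figures used matplotlib 3.10.9.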

Additional observations from a re-analysis of the deposited data

Results flagged for a closer look

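The LPS effect on Clec10a differed between times. Late minus early was -3.02 ± 0.33 on the log2 scale, tested as a contrast in the same limma fit (adjusted p = 4.16e-06). The same held for Mrc1, with late minus early at -2.39 ± 0.25 (adjusted p = 3.1e-06). Of all genes 22.2% were called lower in this contrast, and the median gene stood at -0.32. Clec10a stood at 3.53% of mock at 12 h and Mrc1 at 7.71%, against 63.1% and 93.5% at 1 h.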

How the results depend on the processing

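The late differences of Clec10a, Mrc1 and Clec4n kept their direction and call under every alternative run, with ranges of -3.996 to -3.52, -2.62 to -2.37 and -1.35 to -0.96 when 1 library was left out, although adding Mgl2 to Clec10a gave -1.23. With replicate number as a block the early difference of Clec10a (-0.73), Clec4d at 1, 2, 4, 6 and 12 h (0.98, 1.23, 0.58, 1.08 and 0.83), Clec4n at 4, 6 and 12 h and late minus early (-0.96, -0.94, -1.02 and -1.01) and the Mrc1 steps to 4 h and to 12 h (adjusted p = 0.0217 and 0.033) passed, and 4 scavenger receptors were higher. With arms swapped within replicate pairs, a test added after seeing the data, Clec4n minus Mrc1 (0.67) passed. Of the members' comparisons given here, the block changed no other call. It raised the genes called to 544 from 128 at 1 h, 871 from 454 at 2 h, 1796 from 1193 at 4 h, 1058 from 570 early, 1545 from 956 for late minus early, and 155 from 37 and 363 from 101 for the first 2 steps. Median-ratio rescaling turned Mrc1 at 2 h to 0.0177, ended the calls of Mrc1 at 4 h (-0.58), Clec4n at 9 h (-1.08) and Clec4n over the time course (adjusted p = 0.216), and gave calls to Clec4d at 2, 6 and 12 h (1.38, 1.504 and 1.197). It gave 10 signalling genes higher, 6 and 2 scavenger receptors, 7 and 5 alternative activation genes, 10 and 4 clathrin genes and 825 and 816 of all genes higher and lower. At 2, 6 and 12 h it called 416, 1032 and 962 of all genes. With rescaling and the block together, added after seeing the data, Clec4d passed at 0.99, 1.38, 1.03, 1.504, 0.81 and 1.197 from 1 to 12 h. That fit called 543, 749, 1266, 1473, 1402 and 1413 of 3147 genes at these times, in either direction. In it Clec4n stood at -0.65 at 12 h and at -0.68 for late minus early, where 1224 genes were called. Mrc1 at 2 h stood at 0.0177, and the Mrc1 step to 12 h had an adjusted p of 0.0218 (limma), with 5 genes called. Quantile normalization gave Clec10a early -0.86, Clec4n at 9 h -1.32, adjusted p-values over the time course of 0.106 for Clec4n and 0.0522 for Clec4d, and 7 clathrin and 977 of all genes lower. A pseudocount of 5 gave Clec10a early -0.72 (adjusted p = 0.0241). Fits to the compared groups alone gave Clec4n -0.96 at 4 h and -1.02 at 12 h with calls and -1.51 at 9 h without one. They called 1149, 889 and 411 of all genes at 4, 12 and 9 h. Without centring, footprints minus RNA were -0.43 for Clec4d, -0.35 for Clec4n and 0.20 for Mrc1. Without 1 h, Clec4n minus Mrc1 was 0.87.

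Leaving out 1 library at a time gave these ranges where a call or direction changed. Clec10a early ran from -0.90 to -0.56. Clec4d ran from 0.98 to 1.23 early, 0.56 to 0.97 late, 0.47 to 1.69 at 6 h, -0.14 to 0.90 at 9 h, 0.10 to 0.70 for footprints, and 0.00616 to 0.0512 for its adjusted p over the time course. Clec4n ran from -0.92 to 0.15 at 1 h, -0.30 to 0.48 at 2 h, -1.52 to -0.36 at 6 h, -1.90 to -1.11 at 9 h, -0.41 to 0.12 early, -1.28 to -0.74 for late minus early, 0.0747 to 0.90 for footprints and 0.00846 to 0.058 for its adjusted p over the time course. Mrc1 ran from -0.41 to 0.15 at 2 h, -1.25 to -0.82 at 4 h, -0.25 to 0.0252 early and 0.93 to 1.15 for footprints. With no change of call or direction, 1 library moved by over 1.5 times Clec4d at 4 h (0.0663 to 1.08) and 12 h (0.43 to 1.23) and late minus early (-0.55 to -0.14), Clec4n at 4 h (-1.41 to -0.50), Clec10a at 1 h (-1.03 to -0.35) and Mrc1 at 1 h (-0.16 to -0.028). The cause of these changes was not tested. Where a group is left with 1 library, that library is assumed to vary like the others. With 2 libraries per group and unknown depth, single-time calls of Clec4n and Clec4d changed with the library left out, the block and the scaling.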
